A study of Rattus norvegicus with 6 samples.

Results

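The genes described here encode the chaperone core of the endoplasmic reticulum (ER): the HSP70 proteins Hspa5 and Hyou1, the HSP90 protein Hsp90b1, the J-domain proteins Dnajb9, Dnajb11, Dnajc3 and Dnajc10, and the cofactors Creld2, Manf and Sdf2l1. They were picked by gene symbol and not by a threshold on their values, but with earlier results of these data known. All 10 had 1 record each among the 37991 genes listed and were among the 18134 tested. RNA-seq measured their expression in the healed part of the Achilles tendon of male Sprague-Dawley rats, an outbred laboratory strain. All rats underwent tenotomy, the surgical cutting of the tendon, at 8 weeks of age. The PM group (3 samples) was then exposed to inhaled PM2.5, a fine particulate matter, 3 times weekly over 6 weeks, whereas the non-PM group (3 samples) had no such exposure. The tissue was cut out as a block, so other cells near the tendon could be included. By the methods only the right leg of each rat was operated on, so separate tendons are from separate rats, but no label ties a sample to an animal and the p-values cover the spread between the samples as deposited.

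Proteins bound for the cell surface or the matrix, collagens among them, are folded in the ER. Hspa5, also known as BiP, binds unfolded chains in a cycle driven by ATP. J-domain proteins bring it clients and start ATP hydrolysis, Hyou1 exchanges the spent nucleotide, and Hsp90b1 takes over a narrower set of clients. When unfolded chains build up, the unfolded protein response raises transcription of these genes through factors such as ATF6 and XBP1, which act on ER stress response elements in promoters. A tenocyte that makes collagen has a large load of such clients.

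The promoters were examined because the members mostly varied together across the libraries, as described further on. Since these genes are known targets of such elements, as stated above, matches in them were likely from the choice of genes. They say nothing about why the members varied together here. RefSeq promoter windows of the GRCr8 build, 250 bases before to 50 bases after the annotated start, were found for 9 of the 10 genes, the exception being Manf. The letters of the ER stress response element (CCAAT, any 9 bases, then CCACG) and of ER stress response element II (ATTGG, any 1 base, then CCACG) were searched on both strands. The first occurred in Hspa5, Hsp90b1, Dnajc3 and Creld2, and the second in Hyou1 and Dnajb11, so that 6 of 9 genes held one of them. Of all 33469 windows in the table, 0.0657% held the first and 0.0508% held the second. Hsp90b1 held the first pattern at 2 places on opposite strands, and Hyou1 held the second at 2 places. The promoters of 5 of these genes are printed as the 250 bases before the start, 5′ to 3′ on the strand of the gene, with the matches in capitals, and that of Dnajb9 is printed as one with no match. They lie at chr3:38452766-38453015 (plus strand), chr7:23012294-23012543 (minus), chr7:121789134-121789383 (plus), chr15:102432417-102432666 (plus), chr8:53602632-53602881 (plus, the upstream of 2 annotated starts) and chr6:67002052-67002301 (minus) of GRCr8, a later build than the Rnor_6.0 to which the reads were aligned.
Hspa5: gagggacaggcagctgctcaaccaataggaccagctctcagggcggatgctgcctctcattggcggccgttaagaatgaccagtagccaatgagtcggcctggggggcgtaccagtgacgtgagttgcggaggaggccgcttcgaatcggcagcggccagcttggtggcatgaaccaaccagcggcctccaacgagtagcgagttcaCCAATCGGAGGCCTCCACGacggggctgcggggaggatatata
Hsp90b1: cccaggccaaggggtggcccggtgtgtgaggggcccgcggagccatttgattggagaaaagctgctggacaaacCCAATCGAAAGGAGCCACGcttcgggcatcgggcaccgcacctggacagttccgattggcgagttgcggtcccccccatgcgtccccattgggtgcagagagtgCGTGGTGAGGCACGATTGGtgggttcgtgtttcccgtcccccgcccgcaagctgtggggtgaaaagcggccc
Creld2: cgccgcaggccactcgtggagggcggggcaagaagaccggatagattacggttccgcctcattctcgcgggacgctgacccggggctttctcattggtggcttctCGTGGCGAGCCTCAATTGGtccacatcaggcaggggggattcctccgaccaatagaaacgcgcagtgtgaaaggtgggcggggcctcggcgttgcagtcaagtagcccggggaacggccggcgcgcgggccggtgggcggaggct
Dnajc3: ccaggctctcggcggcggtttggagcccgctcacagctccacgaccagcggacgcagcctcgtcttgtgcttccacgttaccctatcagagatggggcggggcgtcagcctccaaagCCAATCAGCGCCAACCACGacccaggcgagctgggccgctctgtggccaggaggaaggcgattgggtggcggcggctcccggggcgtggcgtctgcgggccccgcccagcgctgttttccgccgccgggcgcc
Hyou1: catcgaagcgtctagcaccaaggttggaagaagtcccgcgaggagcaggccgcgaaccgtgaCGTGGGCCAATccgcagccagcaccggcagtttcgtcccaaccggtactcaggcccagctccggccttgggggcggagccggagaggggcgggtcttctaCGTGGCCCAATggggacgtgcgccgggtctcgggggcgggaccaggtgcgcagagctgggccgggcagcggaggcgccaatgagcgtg
Dnajb9: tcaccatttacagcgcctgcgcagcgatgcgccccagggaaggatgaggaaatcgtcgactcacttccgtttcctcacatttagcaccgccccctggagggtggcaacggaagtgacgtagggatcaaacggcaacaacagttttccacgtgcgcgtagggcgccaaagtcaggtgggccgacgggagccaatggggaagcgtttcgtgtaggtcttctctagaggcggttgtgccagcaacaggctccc
Counted back from the start, the match of Hspa5 spanned positions -43 to -25, that of Dnajc3 -133 to -115 and that of Creld2 -145 to -127 on the opposite strand. The matches of Hsp90b1 spanned -176 to -158 and -72 to -54, and those of Hyou1 spanned -188 to -178 and -88 to -78. The match of Dnajb11, whose sequence is not printed, ran from -10 to the first transcribed base. The core TGACGTG of the unfolded protein response element occurred in Hspa5, Hyou1 and Dnajc10, against 1.81% of all windows, and in Hyou1 it overlapped the upstream match of the second pattern. The palindrome TGACGTCA of the cAMP response element occurred in 0 of the 9 genes, against 1.83% of all windows. At so low a share 0 of 9 is the usual outcome and says nothing particular about these genes. Other forms of the cAMP response element were not searched. Dnajb9 and Sdf2l1 held none of these 4 patterns in full. A match describes letters in the window and no binding was measured.

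The libraries held between 46357986 and 62298837 counts, and the lowest count of any of the 10 genes in a library was 360, for Sdf2l1 in non-PM replicate 3. The tendon markers Scx, Tnmd and Col1a1 were detected in every library, Scx at 20.2 to 42.3 CPM. CPM relates the counts of a gene to the library total after scaling by TMM (trimmed mean of M values), whose factor was 0.793 in non-PM replicate 3 and 0.968 to 1.14 elsewhere. Non-PM replicate 3 stood apart in tissue makeup, with 0.682% of counts from 6 fibrillar collagen genes against 4.8 to 8.45% in the other libraries, and with the most counts from 10 skeletal muscle genes (6.68% against 1.42 to 5.27%). Keratinocyte markers took 0.0442% of counts in non-PM replicate 2 and at most 0.00086% elsewhere. In bulk tissue, more cells of a type and more RNA per cell cannot be told apart.

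All 10 chaperone genes had a log2 fold change of PM over non-PM tendons above 0, as did 49.5% of all genes tested. The log2 fold changes ran from 0.25 to 0.92 with a median of 0.61, while the median over all genes tested was -0.0041. In 6 of the 10, Hyou1, Hsp90b1, Dnajb9, Dnajb11, Dnajc3 and Creld2, each PM library lay above each non-PM library, an order seen in 4.77% of all genes tested, while for 0 of the 10 the order was the opposite one, seen in 4.91% of all genes. By the relaxed criterion taken from the methods of the study (unadjusted p under 0.05 and a fold change of at least 1.2), 5 were higher and 0 lower, namely Hyou1, Hsp90b1, Dnajb9, Dnajc3 and Creld2, against 1.47% of all genes tested that were higher and 1.49% that were lower. No gene in the table passed adjustment over all genes in edgeR's quasi-likelihood test, where 537 genes (2.96%) had an unadjusted p under 0.05. DESeq2 called 13 genes, none of them one of these chaperones, and gave 825 an unadjusted p under 0.05. The adjusted p was 0.942 for each of the 10. Dnajb9, Dnajb11, Dnajc3, Hsp90b1 and Hspa5 are also among the unfolded protein response genes that the study drew from these samples, so their direction is not independent evidence. The other members were measured in the same samples and chosen with earlier results known, so their direction is not independent either. From these samples the study itself reported ER protein processing among the pathways whose differential genes were upregulated in the PM group. The relaxed criterion split all genes into 266 higher and 271 lower, or 127 and 60 on log2(FPKM + 1) in limma (FPKM being fragments scaled by transcript length and depth), where the median over all genes was 0.080.

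**Figure D1:**
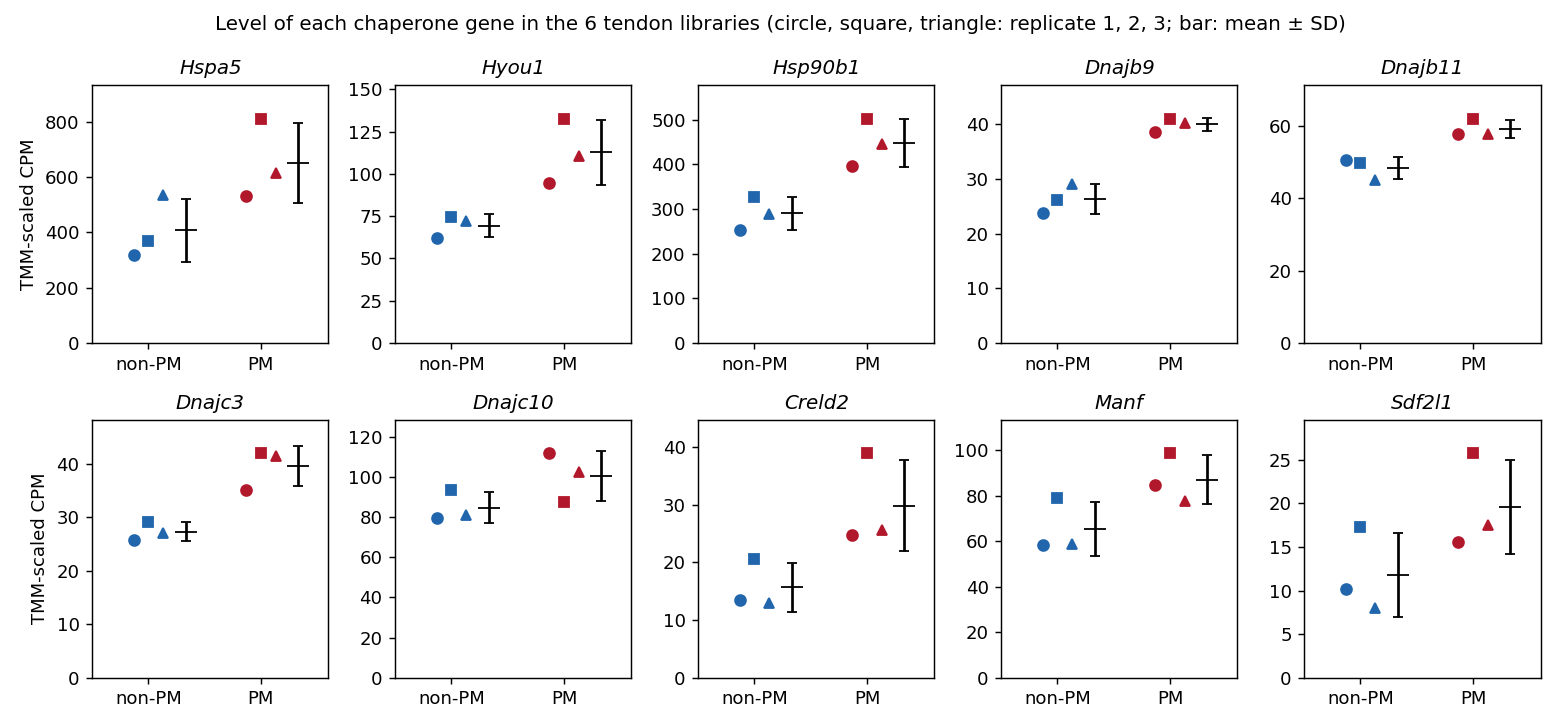
Level of each of the 10 genes in CPM (linear axes from 0) in the 3 non-PM and 3 PM libraries, with the marker shape giving the replicate and the bar the mean ± SD. Hyou1, Hsp90b1, Dnajb9, Dnajb11, Dnajc3 and Creld2 show PM libraries above all non-PM libraries, and PM replicate 2 is the highest library for 9 of the 10 genes.

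Hspa5, the most abundant of the chaperones, stood at 530.7, 812.3 and 613.4 CPM (PM replicates 1, 2 and 3, the order used throughout) and 318.4, 368.6 and 536.4 CPM (non-PM, same order). The groups overlapped at 1 point, with a gap of -5.70 CPM from non-PM replicate 3 to PM replicate 1. Its log2 fold change was 0.68 ± 0.31 (SE, 3 samples per group, edgeR unadjusted p = 0.0698). Scaling by library totals alone gave 0.77 (edgeR unadjusted p = 0.0286), and leaving out non-PM replicate 3 gave 0.91 (edgeR unadjusted p = 0.0190), both past the relaxed criterion. Leaving out PM replicate 2 gave 0.49 for Hspa5 (edgeR unadjusted p = 0.201). On the FPKM scale the groups did not overlap, with 198.2 to 276.4 FPKM in PM and 111.1 to 149.2 FPKM in non-PM tendons. The 2 libraries with the most skeletal muscle counts, PM replicate 2 and non-PM replicate 3, were also the highest for Hspa5 within their groups. Of 10 muscle markers 8 were above 0 in log2 fold change, with a median of 0.95 over the 10, while Acta1 (-0.70) and Myh7 (-1.05) were below 0. The relaxed criterion was passed by 2, Myh1 and Myh4, both higher. Myh4 stood at 26.8, 6324 and 5997 CPM (PM) and 26.2, 14.5 and 63.9 CPM (non-PM), so PM replicate 1 lay within the non-PM range. A fit that included a skeletal muscle score gave Hspa5 a log2 fold change of 0.40 (edgeR unadjusted p = 0.162), and one that included a fibrillar collagen score gave 0.91 (edgeR unadjusted p = 0.0110). Each score was the mean log2 CPM of its marker list with equal weight per gene. Myh4 thus weighed as much as Acta1, and the muscle score need not follow the share of muscle counts. The part of tissue makeup in this difference was not tested further.

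Hyou1, an HSP70 relative that exchanges nucleotide on Hspa5 and holds unfolded chains itself, stood at 94.8, 132.7 and 110.6 CPM (PM) and 61.8, 74.6 and 71.9 CPM (non-PM). The lowest PM library exceeded the highest non-PM library by 20.2 CPM. The mean was 112.7 ± 19.1 CPM against 69.4 ± 6.76 CPM (SD, n = 3), a 1.62-fold difference. The log2 fold change of 0.70 ± 0.19 (edgeR unadjusted p = 0.00828) passed the relaxed criterion in all 6 fits with 1 library left out. Hsp90b1, also called GRP94, which folds integrins and Toll-like receptors, stood at 396.7, 502.2 and 444.3 CPM (PM) and 253.5, 327.5 and 289.0 CPM (non-PM). The groups were separated by 69.2 CPM, with the same library highest in each group as for Hyou1. Its log2 fold change was 0.63 ± 0.23 (SE, 3 samples per group, edgeR unadjusted p = 0.0302). The relaxed call of Hsp90b1 ended without PM replicate 2, PM replicate 3 or non-PM replicate 1, where the log2 fold changes were 0.54, 0.63 and 0.53.

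Among the J-domain proteins, Dnajb9 and Dnajc3 passed the relaxed criterion and Dnajb11 and Dnajc10 did not. Dnajb9, also called ERdj4, which steers misfolded proteins to degradation and helps Hspa5 hold the stress sensor IRE1 inactive, had the tightest PM group. It stood at 38.6, 41.0 and 40.2 CPM (PM) and 23.8, 26.1 and 29.1 CPM (non-PM). The PM libraries varied by 3.01% of their mean (coefficient of variation) and the gap between the groups was 9.51 CPM. Its log2 fold change of 0.60 ± 0.13 had the 9th smallest unadjusted p of all genes tested (edgeR, 0.00322, adjusted p = 0.942) and lay between 0.52 and 0.67 with 1 library left out. Dnajc3, also called p58IPK, a J-domain protein that binds unfolded chains, stood at 35.2, 41.9 and 41.4 CPM (PM) and 25.7, 29.2 and 27.0 CPM (non-PM). Its groups were separated by 6.00 CPM and its log2 fold change was 0.53 ± 0.14 (edgeR unadjusted p = 0.00664). Both genes passed the relaxed criterion in all 6 fits with 1 library left out.

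Dnajb11, also called ERdj3, which binds chains as they enter the ER, stood at 57.8, 62.1 and 57.9 CPM (PM) and 50.6, 49.9 and 45.1 CPM (non-PM). The groups did not overlap and were 7.21 CPM apart, but the difference was small, at 0.29 ± 0.13 on the log2 scale (edgeR unadjusted p = 0.0594). Dnajc10, also called ERdj5, which joins a J domain to thioredoxin domains and reduces disulfide bonds of proteins to be degraded, had a pattern of its own. It stood at 111.9, 87.4 and 102.3 CPM (PM) and 79.6, 93.7 and 80.9 CPM (non-PM), so that PM replicate 2, the highest library for the other 9 genes, was its lowest PM library. The groups overlapped, and the log2 fold change was 0.25 ± 0.17 (edgeR unadjusted p = 0.193), or 0.16 without PM replicate 1.

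**Figure D2:**
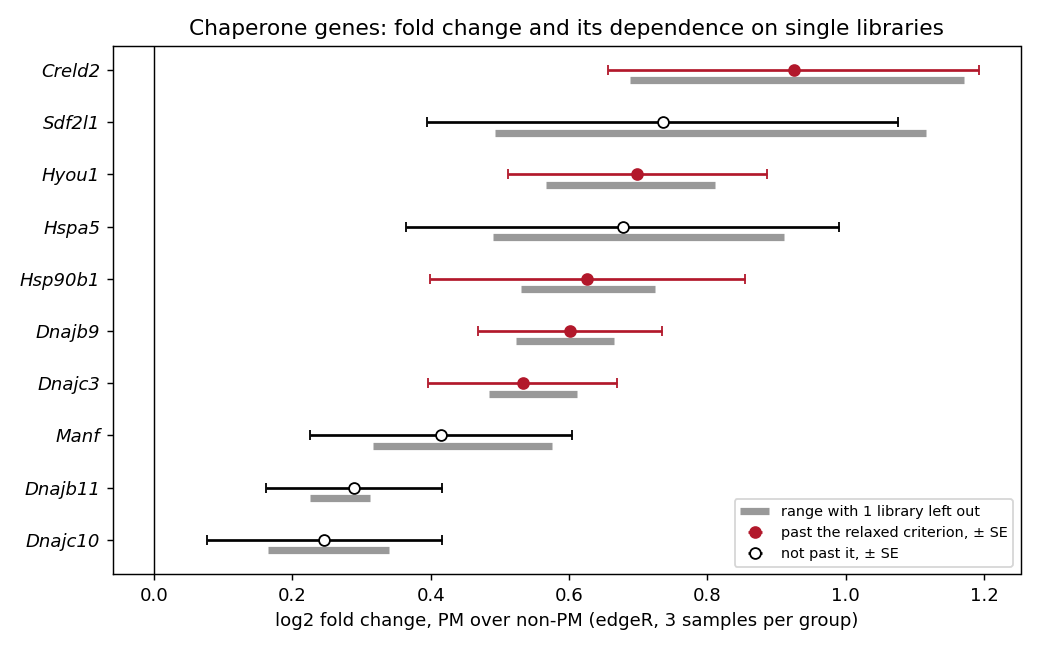
Log2 fold change of PM over non-PM tendons for each gene in edgeR (points, ± SE, 3 samples per group), with the grey bars giving the lowest and highest value when 1 library was left out. All 10 points and all grey bars lie above 0, from 0.25 for Dnajc10 to 0.92 for Creld2, and filled points mark the 5 genes past the relaxed criterion.

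The cofactors held the largest fold changes, in Creld2 and Sdf2l1. Creld2, a cysteine-rich ER protein to which disulfide isomerase activity has been ascribed, stood at 24.8, 39.0 and 25.7 CPM (PM) and 13.5, 20.6 and 13.0 CPM (non-PM). The groups were 4.22 CPM apart, with replicate 2 the highest in each. The mean was 29.8 ± 7.92 CPM against 15.7 ± 4.25 CPM (SD, n = 3), a 1.90-fold difference that was the largest of the 10, and the log2 fold change of 0.92 ± 0.27 (edgeR unadjusted p = 0.0119) lay between 0.69 and 1.17 with 1 library left out. Sdf2l1, which forms a complex with Dnajb11, stood at 15.6, 25.8 and 17.6 CPM (PM) and 10.2, 17.2 and 7.95 CPM (non-PM). Non-PM replicate 2 lay above PM replicate 1, so the groups overlapped, and the log2 fold change was 0.74 ± 0.34 (edgeR unadjusted p = 0.0701). Without non-PM replicate 2 the log2 fold change of Sdf2l1 was 1.12 (edgeR unadjusted p = 0.00769), but it was 0.49 without PM replicate 2 (edgeR unadjusted p = 0.225) and 0.50 without non-PM replicate 3 (edgeR unadjusted p = 0.182). Manf, a small protein that binds Hspa5 and can be secreted, stood at 84.8, 98.6 and 77.5 CPM (PM) and 58.3, 78.9 and 58.6 CPM (non-PM). The groups overlapped through non-PM replicate 2 (a gap of -1.38 CPM), and the log2 fold change was 0.41 ± 0.19 (edgeR unadjusted p = 0.0676), or 0.58 without that library (edgeR unadjusted p = 0.0214). It was 0.32 for Manf without PM replicate 2 (edgeR unadjusted p = 0.199).

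Per transcript length, the order of the levels was shared by the libraries at the top and loose below it. Hspa5 averaged 184.1 FPKM over the 6 libraries, Hsp90b1 118.8, Manf 79.4 and Dnajb11 25.9 FPKM, and in each of the 6 libraries these genes held ranks 1, 2, 3 and 4 in this order. Dnajc10, Dnajc3, Hyou1, Creld2, Dnajb9 and Sdf2l1 averaged between 13.5 and 20.2 FPKM, and their ranks from 5 to 10 changed between libraries. For example, Dnajc10 was the 5th in 4 libraries but the 10th in PM replicate 2. By mean FPKM the 10 genes lay between the 75.8th percentile (Sdf2l1) and the 98.3rd percentile (Hspa5) of the genes tested. Hspa5 supplied 31.8, 29.8 and 42.7% of the summed FPKM of the 10 genes in non-PM replicates 1 to 3 and 34.4, 39.8 and 36.7% in PM replicates 1 to 3, so its share was highest in non-PM replicate 3. Each gene's FPKM as a percentage of that of Hspa5 overlapped between the groups for all 9 others. Dnajb11, for instance, stood at 14.9, 10.5 and 12.9% of Hspa5 in PM and at 21.7, 18.5 and 11.5% in non-PM replicates 1 to 3.

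**Figure D3:**
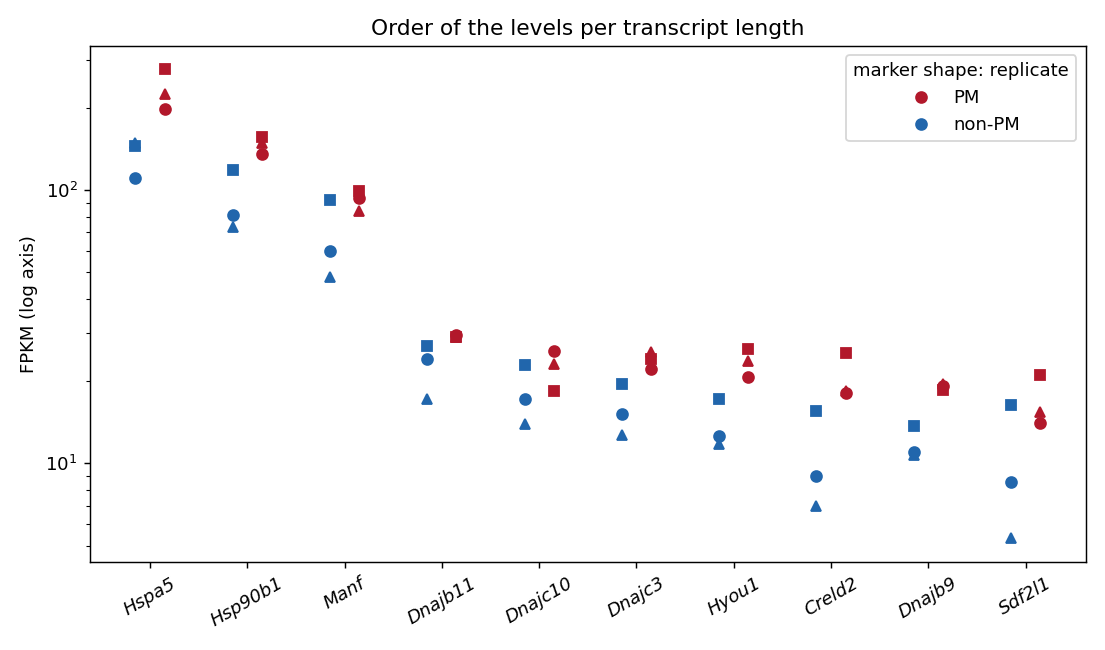
FPKM of each gene on a log axis, ordered by the mean over 6 libraries, with red markers for PM, blue markers for non-PM and the shape for the replicate. Hspa5, Hsp90b1 and Manf lie above the other 7 genes, which share the range from 5.32 to 29.5 FPKM.

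The 10 genes mostly varied together across the 6 libraries, with a pairwise Pearson r of log2 CPM from 0.26 to 0.99 and a median of 0.85. These values include the difference between the groups. Together the 10 genes took 0.148, 0.178 and 0.161% of counts in PM and 0.0909, 0.124 and 0.0920% in non-PM replicates 1 to 3, each with a 95% Wilson interval at most 0.0022 percentage points wide, which covers counting error only. PM replicate 2 was the highest library for 9 genes and PM replicate 1 for Dnajc10, while non-PM replicate 1 was the lowest for 7 genes and non-PM replicate 3 for Dnajb11, Creld2 and Sdf2l1. Within the non-PM group, replicate 2 was the highest for 7 genes, and the exceptions were Hspa5 and Dnajb9 (replicate 3) and Dnajb11 (replicate 1). Over the 6 libraries, which share the difference between the groups, the log2 CPM of a gene had a Pearson r with the mean standardised profile of the 9 others of 0.99 for Hsp90b1, 0.97 for Hyou1 and Dnajc3, 0.76 for Hspa5 and 0.55 for Dnajc10. Of 11718 other named genes with a mean of at least 1 FPKM, Ankrd6, Mzt1, Nup58, Gpatch2l and Sptbn5 had the profiles most like the mean of the 10, with r between 0.97 and 0.99 over 6 libraries. With so many candidates and 6 points, such values describe likeness only. Sptbn5 stood at 21.0, 22.6 and 16.6 CPM (PM) and 8.38, 13.1 and 10.05 CPM (non-PM).

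**Figure D4:**
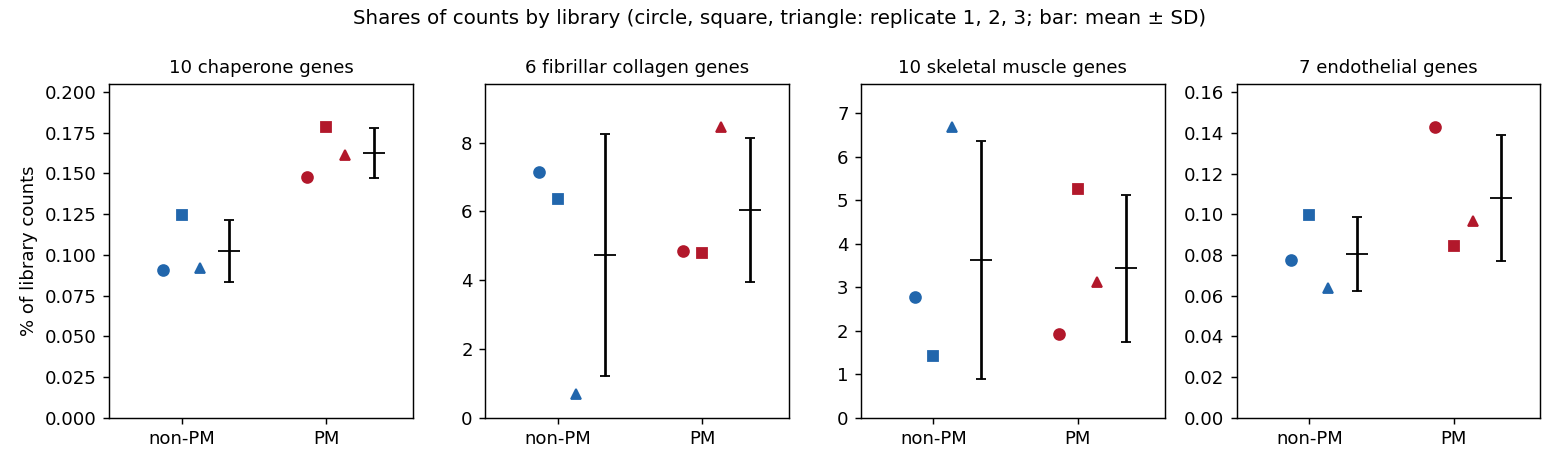
Percentage of library counts (linear axes from 0) taken by the 10 chaperone genes, 6 fibrillar collagen genes, 10 skeletal muscle genes and 7 endothelial genes, with the marker shape giving the replicate and the bar the mean ± SD. The chaperone share is 0.148 to 0.178% in PM and 0.0909 to 0.124% in non-PM libraries, while the groups overlap in the other panels and non-PM replicate 3 has the lowest collagen share.

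The summed shares of each list of cell type markers overlapped between the groups. All 6 fibrillar collagen genes lay above 0 in log2 fold change, with 0 past the relaxed criterion, and took 4.8 to 8.45% of counts in PM and 0.682 to 7.15% in non-PM libraries. Non-PM replicate 1, with 7.15% of counts from collagens, was the lowest library for 7 of the 10 chaperones. Non-PM replicate 3, with 0.682%, was the lowest library for 3. Of 8 B and plasma cell markers 5 were above 0 and 0 passed, the share was 0.0080 to 0.0090% in PM and 0.0027 to 0.018% in non-PM libraries, and the joining chain gene Jchain of plasma cells was at most 9.93 CPM. All 7 endothelial genes were above 0 and 2 were higher by the relaxed criterion, with shares of 0.0843 to 0.143% in PM and 0.0638 to 0.09996% in non-PM libraries. Of 6 adipocyte markers 5 were above 0 and 0 passed. Their median log2 fold change was 1.07, with shares of 0.0648 to 0.129% in PM and 0.0600 to 0.0901% in non-PM libraries. Of 6 macrophage markers 4 were above 0 and 0 passed, with a median of 0.29 and shares of 0.0272 to 0.0597% and 0.0113 to 0.0520%. No marker of these 5 lists was at 0 in all libraries, while Ms4a1 of B cells, for example, had no count in non-PM replicates 2 and 3. The endothelial share was highest in PM replicate 1, which was the lowest PM library for 8 of the 10 chaperones. Within the non-PM group this share was highest in replicate 2 (0.09996%), which was the highest non-PM library for 7 of them. The median log2 fold change of the 10 genes was 0.62 in a fit that included the fibrillar collagen score and 0.51 in one with the skeletal muscle score. The part of cell makeup in the chaperone difference was otherwise not tested.

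The remaining genes of the ER HSP70 and HSP90 system were divided in direction. Among the 16 tested, 9 lay above 0 and 7 lay below 0, the median log2 fold change was 0.041, and 0 passed the relaxed criterion. This median depended on single libraries, being -0.015 when PM replicate 1 was left out, -0.0070 for non-PM replicate 3, 0.12 for PM replicate 2 and 0.29 for non-PM replicate 2. Sil1, the other nucleotide exchange factor of Hspa5, stood at 14.0 ± 0.636 CPM (PM) and 14.0 ± 1.33 CPM (non-PM; SD, n = 3), with a log2 fold change of -0.0024 ± 0.15. Sdf2, the close relative of Sdf2l1, had a log2 fold change of -0.17 ± 0.15, Creld1, the relative of Creld2, of -0.37 ± 0.34, and Cdnf, the relative of Manf, of -0.51 ± 0.65. These relatives thus had means in the opposite order to Sdf2l1, Creld2 and Manf, with overlapping groups. For Creld1 and Cdnf this order rested on non-PM replicate 3. That library stood at 104.8 CPM for Creld1, against 43.4 to 72.5 CPM elsewhere, and at 10.1 CPM for Cdnf, against 2.06 to 4.60 CPM elsewhere. The differences between relatives were not tested. The AMP transferase of Hspa5 Ficd, the J-domain protein Dnajc25 and the HSP70-like Hspa13 had the smallest unadjusted p of this list, with log2 fold changes of 0.31, 0.42 and 0.48, and overlapping groups. None of the 15 genes of this list with a promoter window held either ER stress response pattern. In the other lists either pattern occurred in Calr, Canx and Ero1b (3 of 19 isomerase and calnexin cycle genes with a window), Xbp1 (1 of 16), and Derl3 and Herpud1 (2 of 15 genes of ER-associated degradation), and in 0 of 13 translocon genes.

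Among disulfide isomerases and the calnexin cycle, which form disulfide bonds and check sugar-bearing chains, 19 of 23 genes were above 0, with a median log2 fold change of 0.25. The relaxed criterion was passed by Pdia4, which was higher, and not by the other 22. Pdia4 stood at 127.9, 133.9 and 134.3 CPM (PM) and 72.3, 109.4 and 60.0 CPM (non-PM), without overlap and with tight PM values. Its log2 fold change was 0.71 ± 0.25, and of 6 fits with 1 library left out it passed only without non-PM replicate 2, at 0.999. The isomerase Pdia6 had a log2 fold change of 0.41 ± 0.18 and the lectin chaperone Canx of 0.43 ± 0.20, without overlap. Without non-PM replicate 3 the median of this list was 0.073. The translocon and signal peptidase, which bring chains into the ER and trim them, had a median of 0.095 over 15 genes, of which 12 were above 0 and 0 passed. The signal peptidase subunits Spcs2 and Spcs3 had log2 fold changes of 0.23 ± 0.13 and 0.36 ± 0.22, and Ssr4, a subunit of the translocon-associated complex, had -0.27 ± 0.16. Without non-PM replicate 3 this median was -0.074, and it was 0.19, 0.15 and 0.21 without PM replicate 2, non-PM replicate 1 and non-PM replicate 2.

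Sensors and effectors of the unfolded protein response were mixed. The median log2 fold change of 19 genes was 0.063, with 13 above 0 and 6 below, and 0.10, 0.11 and 0.11 without PM replicate 1, PM replicate 2 and non-PM replicate 1. The relaxed criterion was passed by Creb3l2, which was higher, and not by the other 18. Creb3l2, a membrane-bound transcription factor related to ATF6, stood at 41.8, 32.5 and 55.0 CPM (PM) and 26.8, 27.8 and 15.9 CPM (non-PM), without overlap. Its log2 fold change of 0.88 ± 0.29 lost the relaxed call without PM replicate 3. Xbp1, the factor activated by IRE1, stood at 154.1, 175.7 and 153.4 CPM (PM) and 123.9, 142.9 and 118.0 CPM (non-PM), also without overlap, with a log2 fold change of 0.33 ± 0.18 (edgeR unadjusted p = 0.111). Chac1, which degrades glutathione, stood at 73.4 CPM in non-PM replicate 2 and between 1.55 and 8.30 CPM elsewhere, so its log2 fold change of -2.53 ± 1.23 rested on that library.

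ER-associated degradation, which returns misfolded proteins to the cytosol, had 14 of 18 genes above 0 and a median of 0.13, or 0.049 without non-PM replicate 3. Sel1l, a scaffold of the ubiquitin ligase complex in the ER membrane, was higher by the relaxed criterion, with a log2 fold change of 0.40 ± 0.16, unlike the other 17. Of 6 fits with 1 library left out Sel1l passed only without non-PM replicate 3. Edem1, a lectin of this pathway, had a log2 fold change of 0.45 ± 0.23, and Fam8a1 of 0.21 ± 0.13, both without overlap. Cytosolic and mitochondrial members of the HSP70 and HSP90 system had a median of -0.25 over 25 genes, of which 20 were below 0 and 0 passed. Hspa2, a cytosolic HSP70, stood at 23.65, 20.62 and 18.46 CPM (PM) and 24.80, 23.70 and 44.97 CPM (non-PM). Each PM library was lower than each non-PM library, but PM replicate 1 only barely, and non-PM replicate 3 lay far above the others. The log2 fold change of Hspa2 was -0.58 ± 0.28, while its J-domain partners Dnaja1 and Dnaja2 had 0.26 ± 0.19 and -0.33 ± 0.28. Without non-PM replicate 3 the median of this list turned to 0.17, whereas that of the 10 ER chaperones was 0.56. Leaving out PM replicate 2, non-PM replicate 1 or non-PM replicate 2 gave this list -0.39, -0.40 and -0.44. The difference between the medians of these lists was not tested.

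**Figure D5:**
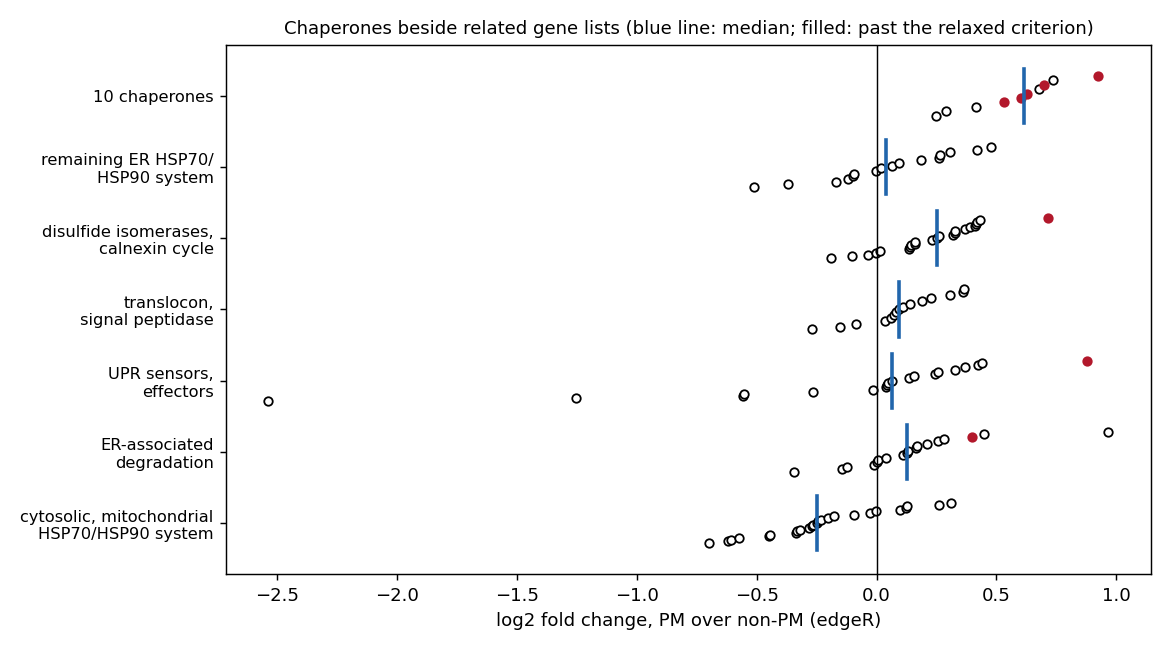
Log2 fold changes of PM over non-PM tendons for the 10 chaperones and 6 related lists (1 point per gene tested, blue line at the median, filled points past the relaxed criterion). The chaperone median is 0.61, the medians of the other lists run from -0.25 to 0.25, and the point at -2.53 is Chac1.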

How the data were processed

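Tendon RNA of 3 PM and 3 non-PM samples was made into stranded poly(A) libraries and sequenced as read pairs. The submitters' processing notes name FastQC 0.11.7, Trimmomatic 0.38, HISAT2 2.1.0 and the Rnor_6.0 genome, and the methods name StringTie. The deposited table holds read counts per gene and FPKM, both as the authors computed them. For the counting step, strand and treatment of multi-mapped reads are not given in the sources used here. Columns were matched to sample titles by group and number.

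The quasi-likelihood test of edgeR 4.0.16 was run on the counts in R 4.3.3 (filterByExpr, TMM, two-sided, group as the term, Benjamini-Hochberg adjustment over 18134 genes). SE was taken as |log2 fold change| divided by √F. Levels (CPM) relate counts to the TMM-scaled total. No library pair was alike within counting error (lowest chi-square per degree of freedom 176.2). That lowest value was for PM replicate 2 with non-PM replicate 1, while the lowest within a group was 241.3, for PM replicates 1 and 3. The most alike libraries thus crossed the groups. Alternatives used DESeq2 1.42.0, limma 3.58.1 on log2(FPKM + 1) and log2(FPKM + 0.1) for genes with a mean of at least 1 FPKM, other scalings, no filter, covariates, the replicate number as a block, and each library left out. The test code was checked on simulated data. Lists were described by counts and medians, without a test. Members and lists were chosen with earlier results of these data known. Named genes were the 10 members, 3 genes per list with the smallest unadjusted p, Sil1, Sdf2, Cdnf and Creld1, the 5 most alike profiles, marker genes, and, without values, the genes whose promoters held a pattern. Of the list symbols, Srpr had no match and Mogs, Selenos and Hspa1b were matched through the table of current names. Promoter letters are RefSeq, GRCr8. DNA methylation and protein were not analysed here.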

Additional observations from a re-analysis of the deposited data

How the results depend on the processing

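All 10 chaperones kept a log2 fold change above 0 under each of the 15 alternatives run. Their median lay between 0.49 (without PM replicate 2) and 0.71 (limma on log2(FPKM + 0.1)), and with 1 library left out between 0.49 and 0.67. The number higher by the relaxed criterion lay between 4 and 7. It was 4 with the skeletal muscle covariate (6.04% of all genes tested higher), 5 with the replicate block (0.419%), 7 in DESeq2 (1.90%), and with 1 library left out between 4 (1.81%, 0.590% and 1.40% when PM replicate 2, PM replicate 3 or non-PM replicate 1 was omitted) and 7 (3.13%, non-PM replicate 2 omitted). Hyou1, Dnajb9, Dnajc3 and Creld2 passed the relaxed criterion under all 15 alternatives and Dnajc10 under none. Hsp90b1 lost the call in 5, 3 of them with a library left out, the others being the skeletal muscle covariate (0.56) and the replicate block (0.63). Hspa5 gained it in 6, Sdf2l1 in 2, Dnajb11 in 1 and Manf in 1. Over all genes 0 passed adjustment in edgeR and limma, and 13 passed in the DESeq2 Wald test, where the lowest adjusted p of the 10 chaperones was 0.211. Against 537 genes with an unadjusted p under 0.05, there were 306 with library totals alone, 187 and 191 in limma (pseudocounts 1 and 0.1), 825 in DESeq2, 2001 with the skeletal muscle covariate, and with 1 library left out between 206 (PM replicate 3 omitted) and 1209 (non-PM replicate 2 omitted). The median over all genes was 0.10 in limma on log2(FPKM + 0.1). Of the related lists, the median of the remaining ER HSP70 and HSP90 system turned to -0.015 (PM replicate 1 omitted) and to -0.0070 (non-PM replicate 3 omitted), and was 0.29 with non-PM replicate 2 omitted. The median of the translocon turned to -0.074 and that of the cytosolic and mitochondrial system to 0.17 without non-PM replicate 3. With library totals alone the medians of the remaining system, the unfolded protein response list and the cytosolic and mitochondrial system were 0.082, 0.13 and -0.11. The cause of these changes was not tested.

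Same-numbered samples did not deviate together over all genes tested (r of -0.18, -0.56 and -0.44), and no PM library correlated best with its own number. With the replicate number as a block, 155 genes had an unadjusted p under 0.05 against 537 without it, 5 chaperones were higher by the relaxed criterion and their median was 0.62. Sdf2l1 gained the call in the block fit at 0.78. With 3 libraries per group, the edgeR test without the block separated none of the chaperones after adjustment over all genes (adjusted p = 0.942 for each). In that test Dnajc10, Dnajb11, Manf, Hspa5 and Sdf2l1 also had an edgeR unadjusted p above 0.05. Their log2 fold changes were 0.25, 0.29, 0.41, 0.68 and 0.74, so a small difference alone did not mark them.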
